A study of Sus scrofa with 12 samples.

Results

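The translation factors described here are the 42 genes named by a probe set whose only gene symbol begins with EIF (eukaryotic initiation factor) or EEF (eukaryotic elongation factor) followed by a digit, with EIF4EBP1 set aside. They are 42 of the 6765 genes that the array names by a probe set of 1 symbol. Where a gene had several probe sets, the brightest of them, by the mean of the arrays, stood for it. EEF1A1 is an exception to that rule: its brightest probe set is one of the array's EF1A controls, which were left out, so its brightest ordinary probe set was used. Among the 42 genes, 26 had 1 probe set and 16 had several, and all 42 passed the filter on low signals.

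The tissue was coronary artery wall of Yorkshire farm pigs, dissected by hand from stents that had been in place for 28 days. The stents were bare metal (BMS), or released sirolimus (sirolimus-eluting, SES) or its analog zotarolimus (zotarolimus-eluting, ZES), and each group held 4 artery segments from 2 pigs, so the 12 arrays came from 6 animals that each carried 1 stent type. All groups share the angioplasty and a metal implant, and no artery without a stent was measured. The sources used here do not give the ages or sexes of the pigs or the drug loads. Segments are called by stent type and a number, with numbers 1 and 2 from the first pig of a type and 3 and 4 from the second. In 5 of the pigs 1 segment was of the left anterior descending artery (LAD) and 1 of the right coronary artery (RCA), and the first SES pig gave the RCA and the left circumflex artery. With 2 animals a group, the p-values, standard errors and intervals below measure mostly how segments differ from each other.

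Translation starts when eIF2 brings the initiator tRNA to the small ribosomal subunit, eIF3 holds that complex together, and the eIF4 factors bind the mRNA cap and unwind the leader so that the subunit can scan to the start codon. eIF2B recharges eIF2 with GTP after each round, and the eIF2 kinases shut this step off under stress. The eEF1 factors then deliver each aminoacyl tRNA to the ribosome. Sirolimus binds the protein FKBP12, and the pair inhibits the kinase complex mTORC1, which controls cap binding through the 4E-BP proteins and the production of the translation machinery through the mRNAs of ribosomal proteins and elongation factors. Zotarolimus acts by the same route and differs from sirolimus by a tetrazole that replaces one hydroxyl. Most of this control acts on proteins and on the use of mRNAs; the arrays measured only how much mRNA was present.

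None of the 42 genes passed an adjusted p of 0.05 between any pair of stent types with limma, the moderated linear model used throughout. For SES against BMS, 0.679% of the 16799 probe sets tested passed, for ZES against SES 0.0714%, and for ZES against BMS 0%. No gene had all ZES values above all BMS values, beside 1.58% of probe sets, and none had all below, beside 2.23%. At an unadjusted p under 0.05 there were 2 of the 42 genes for SES against BMS (4.76%, beside 14.3% of all probe sets), 0 for ZES against BMS (beside 8.99%) and 3 for ZES against SES (7.14%, beside 10.0%). In the F test over the 3 stent types together, 0 of 42 passed after adjustment, beside 0.345% of all probe sets, and 3 did so before it, beside 13.4%. The genes with the smallest adjusted p in that test were EIF2B3 (0.230), EEF1D (0.235) and EIF4EBP2 (0.252).

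The differences were also small in size. The median log2 difference over the 42 genes was -0.046 for SES minus BMS, -0.011 for ZES minus BMS and -0.036 for ZES minus SES, beside -0.0064, 0.012 and 0.0099 over the 5793 named genes tested. Disregarding sign, the median difference was 0.29, 0.23 and 0.33, beside 0.48, 0.39 and 0.42 over all named genes. The spread was smaller too. The pooled SD within stent groups had a median of 0.46 over the 42 genes and 0.67 over all named genes. On each array 40 to 42 of the 42 genes were above background, beside 61.0% to 74.5% of all probe sets but the controls. The named genes were not matched for brightness, and its part in the smaller differences and spread was not tested. For 23, 25 and 21 of the 42 genes, in the same order, the whole 95% interval of the difference lay within 2-fold in either direction, so for those genes a larger difference lies outside the interval. For the others the interval reaches past 2-fold, and the 12 arrays do not limit the difference that far.

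For SES against BMS, 15 of the 42 genes had a higher mean and 27 a lower one, which is 35.7% higher beside 49.5% of named genes. This split depended on the scale: with each array centred on its median, 26 of the 42 were higher for SES against BMS and 26, in place of 20, for ZES against BMS. The same step moved the median over all probe sets tested to 0.17 and 0.14 (log2), and the median over the 42 genes to 0.15 and 0.14. For ZES against SES, 19 of 42 were higher on either scale.

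**Figure D1:**
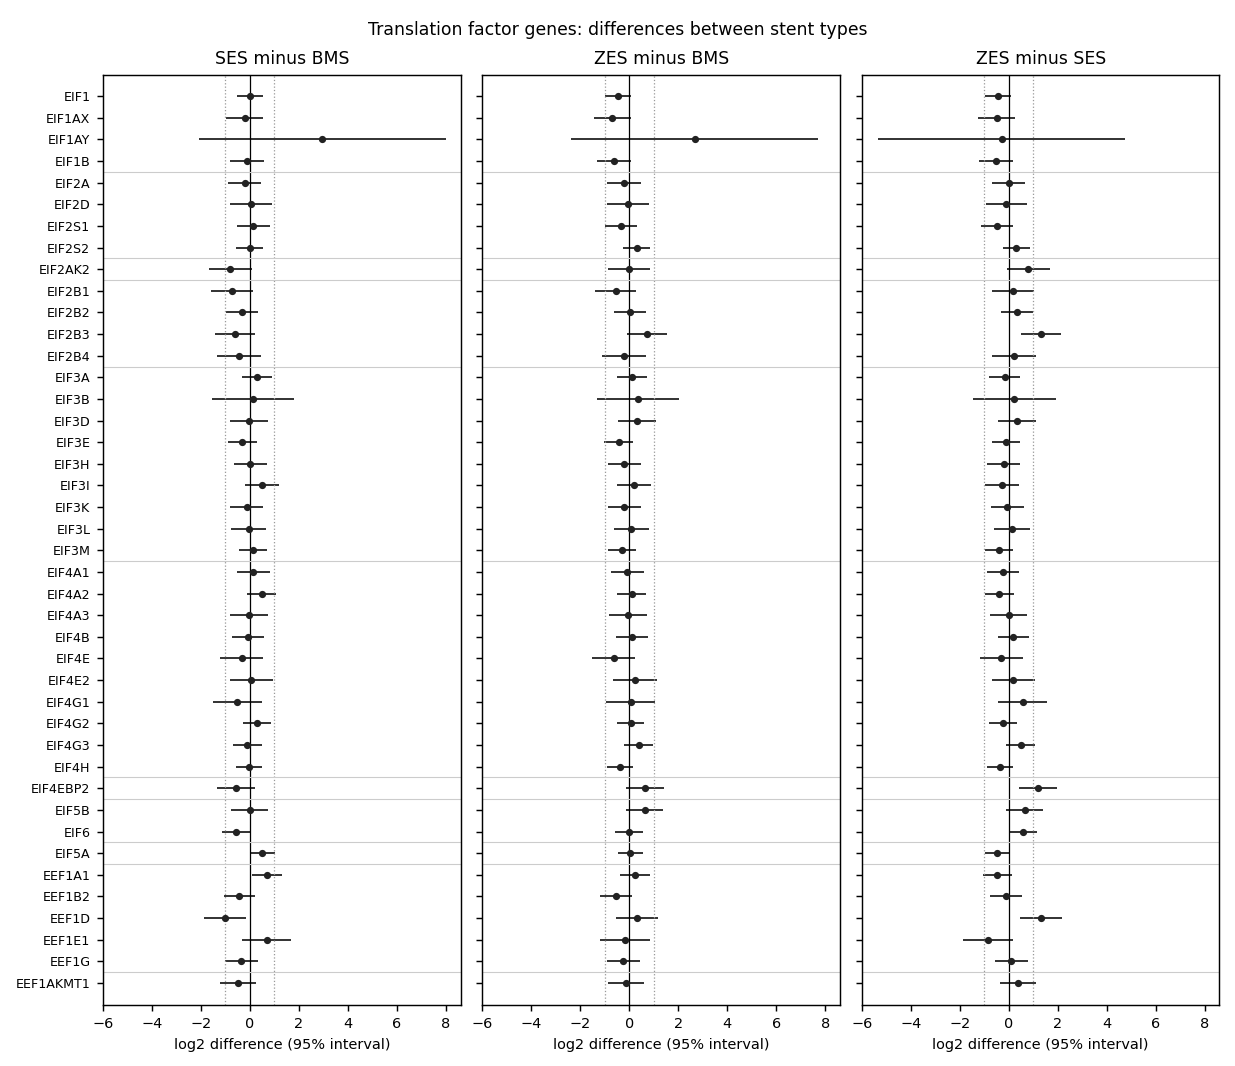
Fitted log2 difference (point) with its 95% interval (line) for each of the 42 translation factor genes, in 3 panels for SES minus BMS, ZES minus BMS and ZES minus SES; dotted lines mark 2-fold and grey lines separate the role groups. Most points lie within the dotted lines, the 3 largest differences of ZES minus SES are those of EIF2B3, EEF1D and EIF4EBP2 (1.32, 1.32 and 1.20), and EIF1AY has the widest intervals.

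The quality controls of the arrays moved with stent type. The spike-in controls, added to each sample for hybridisation, had a mean of 16.30 ± 0.38 on BMS arrays, 15.09 ± 0.43 on SES arrays and 15.30 ± 0.58 on ZES arrays (log2, SD, n = 4). The gap between 3' and 5' GAPDH control signals, which widens when RNA or cDNA is shorter, was 4.16 ± 0.50, 2.71 ± 0.35 and 3.66 ± 0.19 in the same order. In the SES arrays the summed level of the 8 measured of 10 smooth muscle markers was 14.49 to 15.06 on SES 1, 2 and 3 and 16.85 on SES 4, against 16.75 to 17.62 with BMS. With ZES it was 15.11 on ZES 1 and 17.07 to 17.92 on the others. All 8 markers were above background on all 12 arrays. Of the 12 measured of 15 heart muscle markers, 11 were above background on SES 4, 10 on ZES 4 and 9 on BMS 4. On each of the other arrays 4 to 7 were. The T cell marker CD3E was not above background on any BMS array and read 7.24 to 7.87 with SES (adjusted p = 0.0172). It was the only one of 5 tested T and NK cell markers past the threshold, while CD2 differed by -0.13, and no probe set of the array passed for SES against BMS with the spike-in or the GAPDH covariate or without SES 3. The summed level of the 8 T and NK cell markers with a probe set was 8.13 to 8.81 on BMS arrays, 9.34 to 10.25 on SES arrays and 8.51 to 9.80 on ZES arrays. In whole tissue, fewer cells of a type and less RNA per cell cannot be told apart. The part of these measures in the differences below was not tested beyond the covariate fits named there.

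The 4 genes of the start codon and scanning group sit on the small subunit with the initiator tRNA. EIF1, which keeps the subunit from starting at a wrong codon, read 15.18, 14.46, 14.80 and 14.62 on the BMS arrays, 14.87, 14.76, 14.66 and 14.74 with SES and 13.79, 14.32, 14.29 and 14.85 with ZES. The SES values lay inside the range of BMS, and 3 of the 4 ZES values lay below all SES values. The difference of ZES minus SES was -0.44 ± 0.25 (adjusted p = 0.591). EIF1B, its close relative, had means of 10.89 ± 0.47, 10.78 ± 0.33 and 10.25 ± 0.50, and EIF1AX, the X-chromosome gene of eIF1A, had 11.23 ± 0.78, 11.02 ± 0.34 and 10.53 ± 0.39 (BMS, SES and ZES, SD, n = 4). EIF1AX had the smallest p of any translation factor for ZES against BMS, with a difference of -0.71 ± 0.36 and a 95% interval from -1.46 to 0.05 (adjusted p = 0.587). A second EIF1AX probe set gave 0.049 ± 0.33 for the same comparison.

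EIF1AY, the copy of the eIF1A gene on the Y chromosome, was the member with by far the widest spread. Its signal was 11.22 and 11.29 on SES 3 and 4 and 10.98 and 10.95 on ZES 3 and 4, both segments of the second pig of each type. On the other 8 arrays it read between 0.24 and 5.46 and was not above background on any of them. The high arrays are thus those of 2 whole animals, 1 in each drug group, and both segments of an animal read alike. The SD was 1.86, 5.44 and 5.30 in the order BMS, SES and ZES, and the fitted differences against BMS, 2.95 ± 2.39 for SES and 2.67 ± 2.39 for ZES, are means over 2 such levels and describe no array. EIF1AX lay between 10.02 and 11.96 on all 12 arrays. This pattern was singled out after the values were seen; the labels give no sex, no array was grouped by it, and its part in the other differences was not tested.

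**Figure D2:**
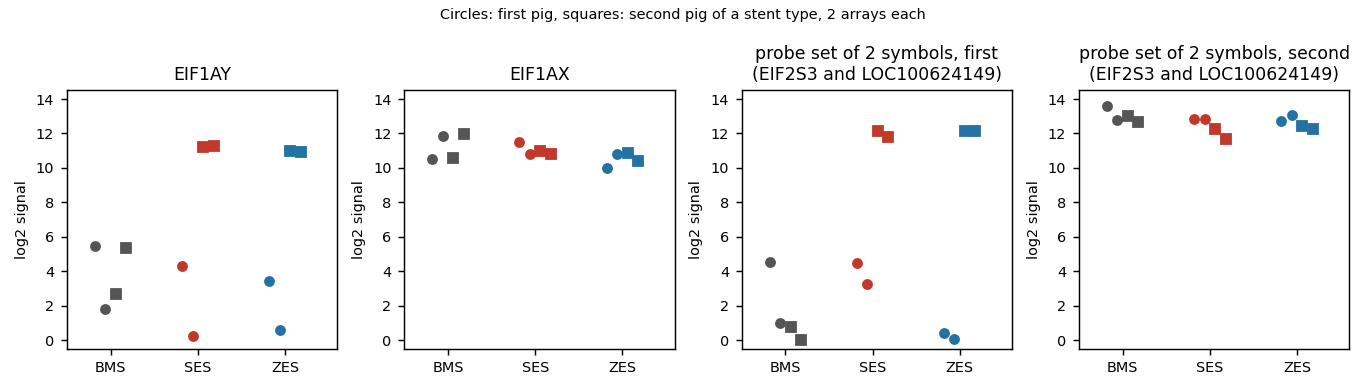
Log2 signal on each of the 12 arrays by stent type for EIF1AY, EIF1AX and 2 probe sets that each name both EIF2S3 and LOC100624149; circles are the first pig and squares the second pig of a type. EIF1AY and the first of these probe sets are high only on SES 3 and 4 and ZES 3 and 4, while EIF1AX and the other probe set are high on all 12 arrays.

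The eIF2 group held EIF2S1 and EIF2S2, the alpha and beta subunits of eIF2, and EIF2A and EIF2D, which can bring tRNA to the ribosome apart from eIF2. EIF2S1, whose protein is the target of the stress kinases, read 13.42, 12.76, 12.58 and 12.35 with BMS, 13.10, 13.22, 12.62 and 12.74 with SES and 13.23, 11.81, 12.46 and 12.27 with ZES. The 3 groups overlapped, and the difference was 0.14 ± 0.31 for SES minus BMS and -0.48 ± 0.31 for ZES minus SES (adjusted p = 0.873 and 0.661). The other 3 genes had differences between -0.22 and 0.31 over the 3 comparisons. The gamma subunit, EIF2S3, is named only by probe sets that carry a second symbol and is not among the 42.

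EIF2AK2 encodes PKR, the eIF2 kinase that responds to double-stranded RNA. It read 8.74, 8.91, 8.29 and 9.07 with BMS, 8.23, 7.71, 7.49 and 8.32 with SES and 9.32, 9.29, 8.45 and 7.89 with ZES. All but 1 of the SES arrays lay below every BMS array, with SES 4 just above BMS 3, and the 2 ZES pigs stood apart from each other. The difference was -0.81 ± 0.41 for SES minus BMS (95% interval -1.69 to 0.06, adjusted p = 0.390) and 0.80 ± 0.41 for ZES minus SES (adjusted p = 0.543). The value for SES minus BMS was -0.078 with the GAPDH gap and -1.34 with the spike-in level as a term of the model. The value for ZES minus SES rested on the first ZES pig: it was 0.23 without ZES 1 and 2 and 1.37 without ZES 3 and 4. The genes of the other 3 eIF2 kinases were not analysed here.

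For eIF2B, the exchange factor that is blocked when the eIF2 kinases are active, 4 subunits were measured. EIF2B3, the gamma subunit, read 8.57, 9.35, 8.25 and 9.27 with BMS, 8.08, 8.11, 8.18 and 8.70 with SES and 9.72, 10.25, 8.91 and 9.46 with ZES. Every ZES array lay above every SES array, and the BMS arrays overlapped both. The difference of ZES minus SES was 1.32 ± 0.39, a ratio of 2.49 with a 95% interval of 0.50 to 2.13 on the log2 scale, and it did not pass (adjusted p = 0.220). In the 33 alternatives that gave a value it stayed between 0.92 and 1.72, with adjusted p from 0.0757 to 0.917.

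The other 3 eIF2B subunits had smaller differences. For SES minus BMS all 4 were negative, at -0.73 ± 0.40 for EIF2B1 (alpha), -0.33 ± 0.31 for EIF2B2 (beta), -0.59 ± 0.39 for EIF2B3 and -0.45 ± 0.43 for EIF2B4 (delta), with adjusted p between 0.425 and 0.669. For ZES minus SES all 4 were positive, from 0.17 for EIF2B1 to 1.32 for EIF2B3. These comparisons share the SES arrays, so their opposite signs are not separate observations. EIF2B1 rested on the first SES pig, since its SES minus BMS value was -0.19 without SES 1 and 2 and -1.27 without SES 3 and 4. Averaging both probe sets of EIF2B1 turned its ZES minus SES value to -0.28.

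For eIF3, the large scaffold of the initiation complex, 9 subunits were measured, and their differences centred near 0. The median was 0.0054 for SES minus BMS, 0.081 for ZES minus BMS and -0.12 for ZES minus SES, and all values lay between -0.43 and 0.50. EIF3A, the largest subunit, read 13.27, 13.18, 12.90 and 14.20 with BMS, 13.39, 13.78, 13.95 and 13.58 with SES and 13.40, 13.02, 13.89 and 13.70 with ZES. BMS 4 was the highest and BMS 3 the lowest of the 12, so the BMS group covered the whole range. EIF3I had the highest difference of the group, 0.50 ± 0.33 for SES minus BMS (adjusted p = 0.519), and BMS 4 read 9.41 beside 10.76 to 10.89 on the other BMS arrays; without BMS 4 the difference was 0.14. EIF3E, EIF3H, EIF3K, EIF3L and EIF3M had SES minus BMS values from -0.32 to 0.12. EIF3B was dim, at 3.63 to 7.31 over all arrays and not above background on BMS 3, and EIF3D lay between 8.83 and 10.65.

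The 10 genes of the eIF4 group, which bind the cap and unwind the mRNA, had differences of -0.51 to 0.48 for SES minus BMS and -0.39 to 0.57 for ZES minus SES. EIF4E, the cap-binding protein, read 8.83, 9.86, 10.19 and 10.77 with BMS, 9.97, 9.71, 9.13 and 9.53 with SES and 9.32, 8.59, 10.06 and 9.17 with ZES. The BMS arrays alone covered nearly the whole range, and the differences were -0.33 ± 0.42 for SES and -0.63 ± 0.42 for ZES against BMS (adjusted p = 0.759 and 0.682). Of the helicases, EIF4A1 differed by 0.14 ± 0.32 and EIF4A2 by 0.48 ± 0.28 for SES minus BMS, and EIF4A3, which works mainly in the exon junction complex, by -0.042 ± 0.36. Of the scaffolds, EIF4G1 differed by -0.51 ± 0.48 for SES minus BMS, EIF4G2, the relative that cannot bind eIF4E, by 0.29 ± 0.26, and EIF4G3 by 0.50 ± 0.28 for ZES minus SES. On their chosen probe sets EIF4B, a helper of the helicase, and EIF4E2, a cap-binding relative of EIF4E, stayed between -0.080 and 0.23 in all 3 comparisons. Further probe sets of both genes gave values from -0.48 to 0.37.

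EIF4H, another helper of the helicase, was the gene whose SES values agreed most closely. It read 11.98, 11.98, 11.96 and 12.01 with SES, 12.31, 11.92, 12.26 and 11.54 with BMS and 11.26, 11.62, 11.85 and 11.73 with ZES. All ZES arrays lay below all SES arrays, but the difference was only -0.37 ± 0.25 (adjusted p = 0.682). Groups that do not overlap were no rarity: ZES lay wholly below SES for 3.06% of all probe sets and for 2 of the 42 genes (4.76%), EIF4H and EIF5A, and wholly above it for 2.94% and for 2 genes (4.76%), EIF2B3 and EIF4EBP2.

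EIF4EBP2 encodes 4E-BP2, which holds eIF4E away from the cap until mTORC1 phosphorylates it. Its signal was 11.15, 9.90, 10.93 and 10.20 with BMS, 9.95, 9.49, 10.07 and 10.44 with SES and 10.71, 11.70, 10.55 and 11.79 with ZES. All ZES arrays lay above all SES arrays, though ZES 3 and SES 4 nearly met, and BMS overlapped both. The difference of ZES minus SES was 1.20 ± 0.37, a ratio of 2.30 with a 95% interval of 0.42 to 1.98 on the log2 scale (adjusted p = 0.241). Against BMS the difference was -0.56 ± 0.37 for SES and 0.64 ± 0.37 for ZES (adjusted p = 0.512 and 0.632).

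The other probe sets of EIF4EBP2 did not show this difference. A further 4 probe sets name the gene alone, and their ZES minus SES values were -0.36 ± 0.33, -0.47 ± 0.54, 0.14 ± 0.60 and 0.076 ± 0.77. With all 5 averaged the difference was 0.12 (adjusted p = 0.950). The second brightest of them read 9.85 to 10.48 with SES and 9.31 to 10.22 with ZES, well above background.

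**Figure D3:**
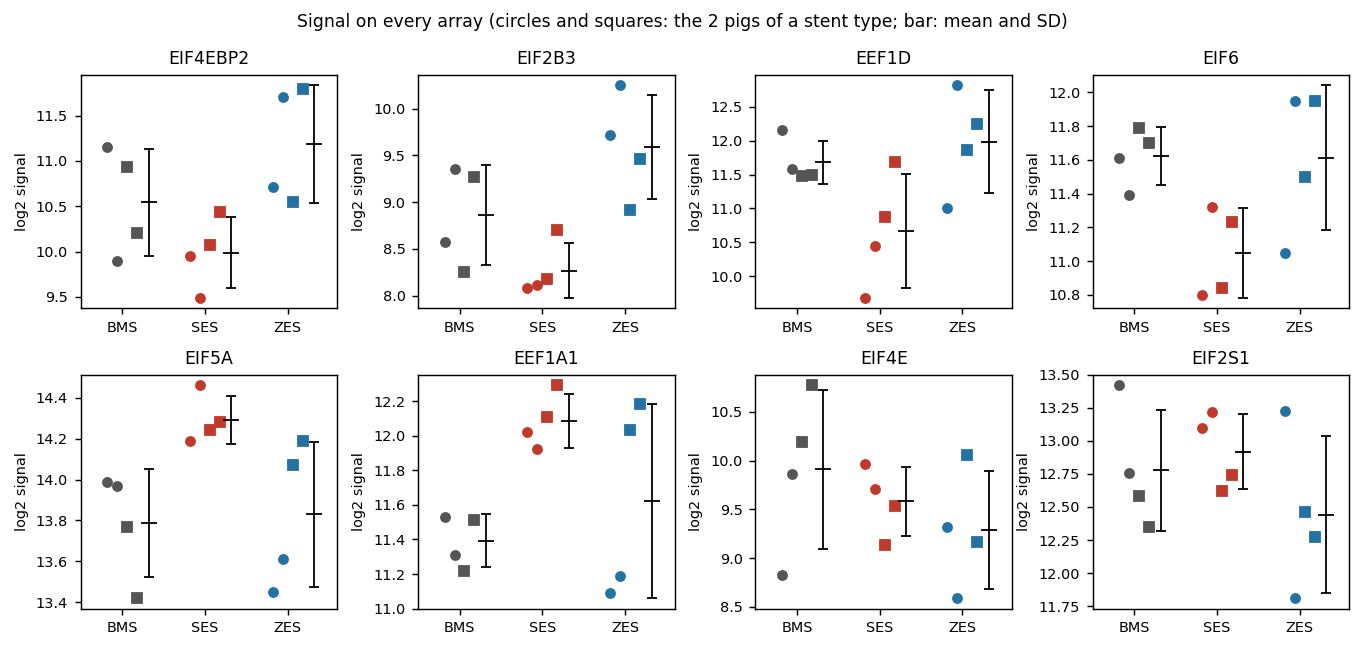
Log2 signal on each array by stent type for 8 translation factor genes, with circles for the first and squares for the second pig of a type and bars for the mean and SD of 4 arrays; each panel has its own axis, which does not start at 0. ZES lies wholly above SES for EIF4EBP2 and EIF2B3, SES lies wholly below BMS for EIF6 and wholly above it for EIF5A and EEF1A1, and the groups overlap for EEF1D, EIF4E and EIF2S1.

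Among the factors that join the ribosomal subunits or keep them apart, EIF6, which binds the large subunit and blocks early joining, read 11.61, 11.39, 11.79 and 11.70 with BMS, 10.80, 11.32, 10.84 and 11.23 with SES and 11.05, 11.95, 11.50 and 11.95 with ZES. Every SES array lay below every BMS array, which held for 1 of the 42 genes (2.38%) and for 4.51% of all probe sets. The difference was -0.57 ± 0.27 for SES minus BMS, a 1.49-fold lower signal (adjusted p = 0.350), and -0.0082 ± 0.27 for ZES minus BMS. EIF5B, the GTPase of subunit joining, differed by -0.013 ± 0.36 for SES and 0.64 ± 0.36 for ZES against BMS (adjusted p = 0.992 and 0.623). For ZES minus SES the difference was 0.57 ± 0.27 for EIF6 and 0.65 ± 0.36 for EIF5B. A second EIF5B probe set, of similar brightness, gave the opposite sign for ZES minus SES, -0.59 ± 0.48, and 0.82 ± 0.48 for SES minus BMS, and a further one gave 0.39 ± 0.41 and -0.086 ± 0.41, so the direction of EIF5B is not settled. When the spike-in level entered the model, the EIF6 value for SES minus BMS was -0.18. Over the 33 alternatives that gave a value it ran from -0.81 to -0.18.

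EIF5A, the factor that carries the amino acid hypusine and helps ribosomes past difficult stretches, read 13.99, 13.97, 13.77 and 13.42 with BMS, 14.19, 14.46, 14.24 and 14.28 with SES and 13.45, 13.61, 14.07 and 14.19 with ZES. The SES arrays lay above all BMS arrays; all ZES arrays lay below all SES arrays, though ZES 4 and SES 1 both round to 14.19. The difference was 0.51 ± 0.24 for SES minus BMS, a ratio of 1.42 (adjusted p = 0.356), and -0.47 ± 0.24 for ZES minus SES (adjusted p = 0.544). The latter was -0.17 without the first ZES pig and -0.77 without the second. A second, dim probe set gave -0.16 ± 0.72 for SES minus BMS, and with both averaged ZES minus SES was -0.0092. With the GAPDH gap as a term SES minus BMS was 0.12, and over the 33 alternatives that gave a value it ran from 0.12 to 0.75. DHPS, the enzyme that begins hypusine synthesis, differed by 0.46 for SES minus BMS (adjusted p = 0.595).

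EEF1D, the delta subunit of the exchange factor that recharges eEF1A, had the largest negative difference of SES minus BMS and, with EIF2B3, the largest positive one of ZES minus SES. It read 12.16, 11.58, 11.48 and 11.50 with BMS, 9.68, 10.44, 10.88 and 11.69 with SES and 11.00, 12.82, 11.87 and 12.25 with ZES. SES 1, 2 and 3 lay below all ZES and BMS arrays, but SES 4 lay among them. The difference was -1.01 ± 0.41 for SES minus BMS (adjusted p = 0.262), a 2.01-fold lower signal, and 1.32 ± 0.41 for ZES minus SES (adjusted p = 0.251).

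The EEF1D values depended on the array weighting and on single pigs. With array weights, ZES minus SES was 1.50 and passed (adjusted p = 0.0400), as did the F test (0.0385). With these weights 306 of the 16799 probe sets passed for ZES minus SES, in place of 12. In the F test 625 passed, in place of 58. Over all alternatives the adjusted p of EEF1D for ZES minus SES ran from 0.0400 to 0.986. Without the first SES pig, SES minus BMS was -0.40 and ZES minus SES 0.70, and without the second they were -1.62 and 1.93. When the spike-in level entered the model, SES minus BMS was -0.29 and ZES minus SES 1.19. The arrays with the lowest EEF1D, SES 1, 2 and 3 and ZES 1, are the same 4 that had the lowest summed smooth muscle markers, 14.49 to 15.11 against 16.75 or more on all others; the part of muscle content in the EEF1D values was not tested.

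EEF1A1 encodes eEF1A, the abundant GTPase that carries aminoacyl tRNA to the ribosome. On its brightest ordinary probe set it read 11.53, 11.31, 11.22 and 11.51 with BMS, 12.02, 11.92, 12.11 and 12.29 with SES and 11.09, 11.19, 12.03 and 12.18 with ZES. All SES arrays lay above all BMS arrays, as did those of EIF5A and of no other of the 42 genes (4.76%, beside 4.23% of all probe sets), and the 2 ZES pigs fell on either side. The difference was 0.69 ± 0.28 for SES minus BMS, a ratio of 1.61 (adjusted p = 0.267), and 0.23 ± 0.28 for ZES minus BMS.

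Other probe sets for the same mRNA gave the opposite sign. The second ordinary probe set read 12.48, 10.53, 11.03 and 10.06 with BMS and 9.08, 9.80, 9.70 and 10.23 with SES, a difference of -1.32 ± 0.47 (adjusted p = 0.189), and the other gave -1.83 ± 0.71 (adjusted p = 0.237). For ZES minus SES these 2 probe sets gave 1.23 ± 0.47 and 1.73 ± 0.71 (adjusted p = 0.372 and 0.416), against -0.46 ± 0.28 on the chosen one. The EF1A control probe sets gave -0.72 ± 0.29 at the 3' end, -0.15 ± 0.37 in the middle and 0.24 ± 0.45 at the 5' end. With all ordinary probe sets averaged, EEF1A1 stood at -0.82 for SES minus BMS (adjusted p = 0.372). Over the 33 alternatives that gave a value it ran from -0.82 to 1.43, so the direction of EEF1A1 is not settled by these arrays. Among the 14 genes with further probe sets past the filter, 12 of the 20 further probe sets had the sign of the chosen one for SES minus BMS, 9 for ZES minus BMS and 10 for ZES minus SES.

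**Figure D4:**
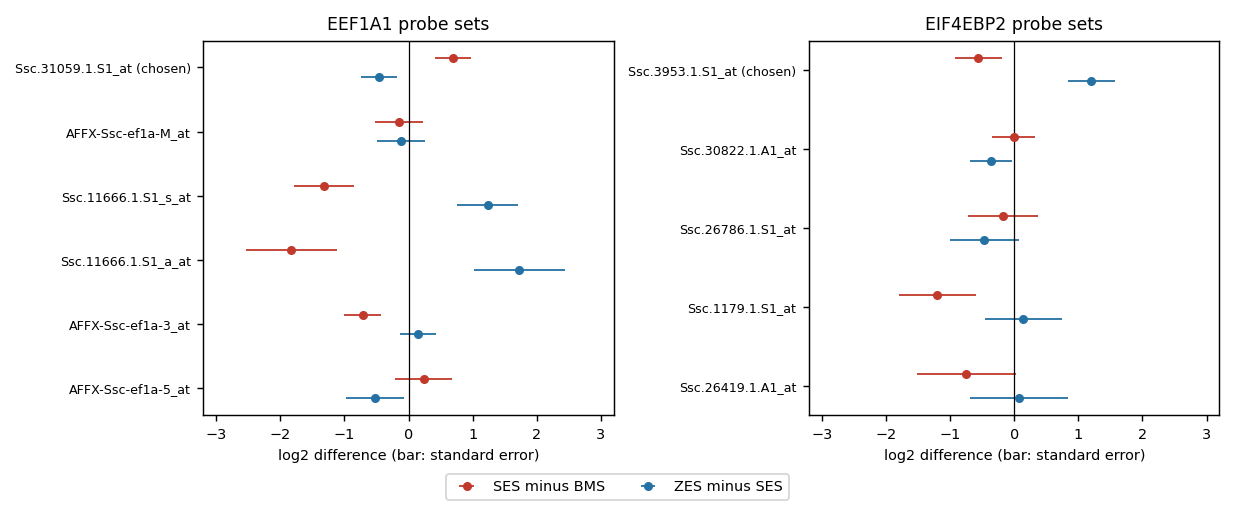
Log2 difference (point) with its standard error (bar) for every probe set of EEF1A1, EF1A controls included, and of EIF4EBP2, in red for SES minus BMS and in blue for ZES minus SES. The chosen EEF1A1 probe set is the only one clearly above 0 for SES minus BMS (0.69), and for ZES minus SES it lies below 0 (-0.46) while 2 other EEF1A1 probe sets lie above it (1.23 and 1.73). Among the EIF4EBP2 probe sets the chosen one is the only one clearly above 0 for ZES minus SES (1.20).

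The remaining elongation genes had groups that overlapped. EEF1B2 and EEF1G, the beta and gamma partners in the same exchange complex as EEF1D, differed by -0.43 ± 0.31 and -0.35 ± 0.32 for SES minus BMS and by -0.11 ± 0.31 and 0.11 ± 0.32 for ZES minus SES. EEF1E1, a small protein of the tRNA synthetase complex, ran the other way at 0.68 ± 0.48 and -0.86 ± 0.48, with SES 4 and BMS 2 far from the rest of their groups at 8.64 and 7.58. EEF1AKMT1, a lysine methyltransferase of eEF1A, differed by -0.50 ± 0.35 and 0.36 ± 0.35. Adjusted p for these 4 genes lay between 0.543 and 0.947. The mRNAs of EEF2, which moves the ribosome along, and of its kinase EEF2K were not analysed here.

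As a comparison of the 2 drug-eluting stent types, ZES against SES gave no translation factor past the threshold. Their drug loads are not known to match. For treatment the labels give only the stent type, so the drug, its load and other features of the stent cannot be told apart. For 21 of the 42 genes the interval of the difference excludes 2-fold in both directions; for 15 it includes a signal at least 2-fold higher with ZES and for 8 one at least 2-fold lower. EIF2B3, EIF4EBP2 and EEF1D had intervals that exclude 0 before adjustment, all 3 with ZES higher. They are 7.14% of the 42 genes, beside 10.0% of all probe sets at an unadjusted p under 0.05. The other EIF4EBP2 probe sets did not show that difference. A p that misses the threshold does not show that both stent types left these mRNAs alike. The intervals do not settle it either, since with 2 pigs a group they reflect mostly the spread of segments.

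One array was low for many of these genes. ZES 1 was the lowest of the 12 arrays for 13 of the 42 genes (31.0%), beside 14.4% of named genes. These were EIF1, EIF1AX and EIF1B, EIF2A, EIF3E, EIF3H, EIF3K, EIF3L and EIF3M, EIF4H, and EEF1A1, EEF1B2 and EEF1G. The median deviation from each gene's mean on that array was -0.44 over the 42 genes, -0.89 over the eIF3 subunits and -0.61 over the eEF1 genes, against -0.063 over all named genes. EIF3K, for one, read 11.68 on ZES 1 and 12.80 to 13.62 on all others, and EEF1G read 13.43 against 14.17 to 15.13.

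Without ZES 1 the median difference of ZES minus SES went from -0.036 to 0.24, with 27 of 42 genes higher in place of 19. The 2 ZES pigs also stood apart: the median was 0.23 without the first and -0.25 without the second. ZES 1 also had the lowest 3', middle and 5' EF1A control signals of the 12 arrays (15.61, 13.23 and 12.03), the lowest spike-in level (14.60) and the most probe sets listed at 0, 1138. Its smooth muscle markers were low as given above; the part of these measures in its low translation factor signals was not tested.

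**Figure D5:**
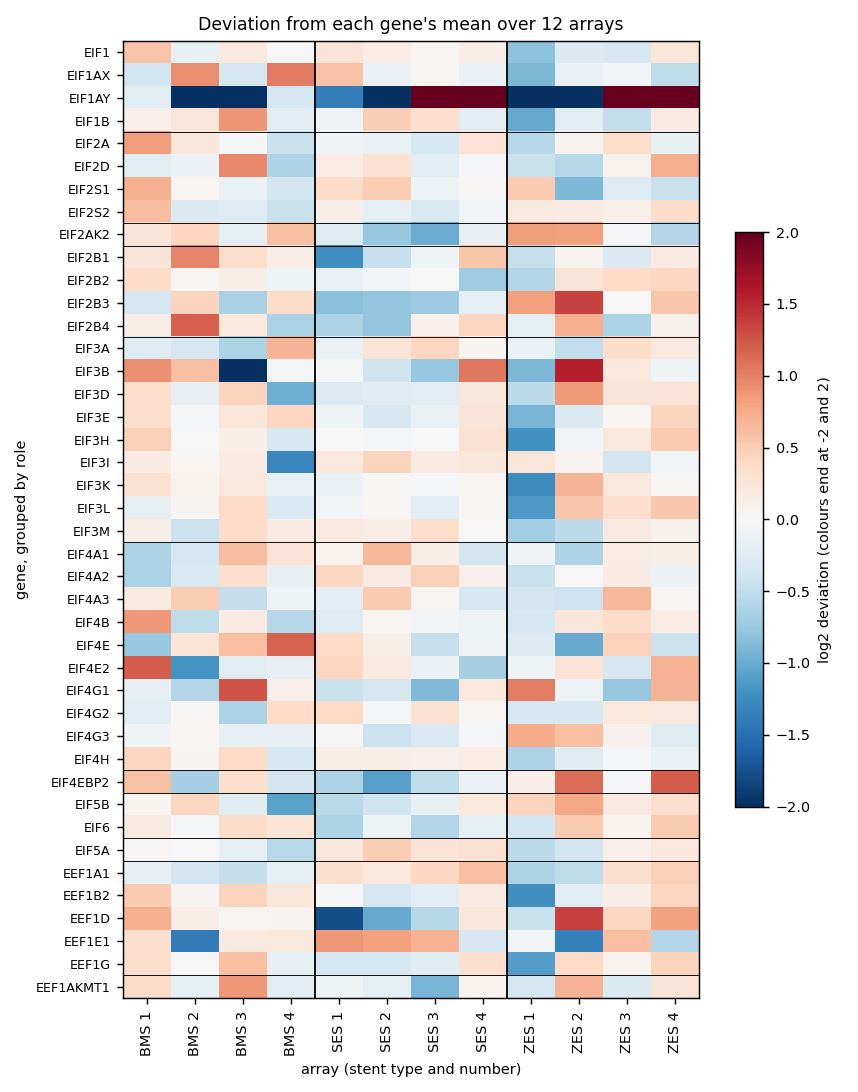
Deviation of each translation factor gene (rows, grouped by role) from its own mean on each of the 12 arrays (columns), in log2 units with red above and blue below; colours end at -2 and 2. The ZES 1 column is blue over most eIF3 and eEF1 rows, the EEF1D row is blue on SES 1, 2 and 3, and the EIF1AY row is dark red only on SES 3 and 4 and ZES 3 and 4.

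Genes next to the translation factors were counted from lists. Among 7 measured genes of 17 in 4E-BP, S6 kinase and MNK signalling, 0 passed in any comparison. The smallest adjusted p was that of MKNK1, the kinase MNK1 that phosphorylates eIF4E. It read 6.94 to 7.78 with BMS, 8.77 to 9.16 with SES and 8.01 to 8.74 with ZES, with no overlap between any pair of groups. Of all probe sets, SES lay wholly above BMS for 4.23%, ZES wholly above BMS for 1.58% and ZES wholly below SES for 3.06%. The MKNK1 difference of SES minus BMS was 1.56 ± 0.38 (adjusted p = 0.0666). RPS6, the ribosomal protein phosphorylated downstream of mTORC1, differed by -0.66 ± 0.27 and FKBP1A, which encodes FKBP12, by 0.63 ± 0.27 for SES minus BMS (adjusted p = 0.263 and 0.291); both were singled out after their values were seen.

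The other lists also gave 0 genes past the threshold for each pair of stent types. They were 5 measured of 13 poly(A)-binding proteins and partners, 6 of 9 mitochondrial translation factors, 17 of 40 cytosolic aminoacyl tRNA synthetases, 9 of 16 targets of the integrated stress response and 1 of 2 hypusine enzymes, and no termination or recycling factor of 7 had a probe set of its own. The tRNA synthetases had 12 genes higher and 5 lower for SES minus BMS, with a median of 0.21. PABPC1, the main cytoplasmic poly(A)-binding protein, differed by 0.088. ATF4, the transcription factor translated when eIF2 is phosphorylated, differed by 0.10 and its target DDIT3 by -0.34. Of the 9 measured stress response targets, 4 were higher and 5 lower for SES minus BMS, with a median of -0.30. The stress response targets with the smallest p for SES minus BMS, named after their values were seen, were VLDLR and PSAT1. VLDLR, a lipoprotein receptor, differed by -1.12 ± 0.31 (adjusted p = 0.102). Its SES arrays lay wholly below its BMS arrays, as for 4.51% of all probe sets. PSAT1, an enzyme of serine synthesis, differed by -1.40 ± 0.65 (adjusted p = 0.334).

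Between arteries of the same pig, in the 10 arrays of the 5 pigs that gave both LAD and RCA, 0 of 42 genes passed, beside 0% of all probe sets; at an unadjusted p under 0.05 there was 1 (2.38%, beside 6.86%). That gene was EEF1E1, lower in the LAD by a log2 difference of -1.05 ± 0.38 (adjusted p = 0.721). The median over the 42 genes was 0.058, with 22 higher in the LAD and 20 lower, and 28 of the 42 intervals lay within 2-fold. The eIF2 group had 4 of 4 genes lower in the LAD, from -0.48 for EIF2S1 to -0.049 for EIF2A, and the eIF4 group 8 of 10. Other groups leaned the other way, with 4 of 5 eEF1, 6 of 9 eIF3 and 3 of 4 eIF2B genes higher. Of the 42 genes 52.4% were higher in the LAD, beside 50.6% of named genes.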

How the data were processed

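Total RNA from stented artery was amplified to cDNA, labelled with biotin and read on an Affymetrix porcine array. The authors deposited log2 signals; per the submitters' processing notes they used Affymetrix Expression Console 5.0 with MAS5. The base was read from the values: linear signals have a trimmed mean of 500.15 to 500.17 on every array. The sources used here give no scaling target or detection calls, and values at 0 mark a floor.

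Of 24123 probe sets, 124 controls and then the dimmest 30% by mean were removed, leaving 16799. Gene symbols came from the platform annotation, in which 10069 probe sets have 1 symbol and 198 several, and these can be old; 41 of the 42 Entrez identifiers are in the RefSeq gene table. Levels of different probe sets were not compared. limma 3.58.1 (R 4.3.3, statmod 1.5.0) was fitted on all 12 arrays with stent type fixed, the pig as a random block (consensus correlation -0.0322, which makes the tests slightly more liberal than independence) and a variance trend in eBayes. For LAD against RCA the pig was a fixed block. All tests are two-sided, with p adjusted by Benjamini-Hochberg over all probe sets, a threshold of 0.05 and intervals at 95%. The procedure was tested on simulated data without a pig effect. The simulated shifts exceeded the differences of all translation factor genes but EIF1AY, so that test does not show how smaller differences fare. Background is the 95th percentile of 59 control probe sets not spiked in. Values after ± are standard errors for differences and SD for group means. The number of arrays limits precision.

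The genes, lists and named genes were chosen with earlier results of these data known. Named genes are, per comparison, the 6 of smallest p in each direction and a panel of 26 genes, of which 19 had a probe set; others are named to account for every member.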

Additional observations from a re-analysis of the deposited data

Results flagged for a closer look

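In each stent group of 4 arrays, the highest and lowest value of each translation factor gene was set against the rest of its group by Dixon's test. Of 126 groups tested 10 stood out past its 95% critical value, and chance gives about 1 in 20. SES 4 was high for 4 genes: EEF1G at 14.87 (14.17 to 14.28 on the other SES arrays), EIF2B3 at 8.70 (8.08 to 8.18), EIF3D at 10.04 (9.52 to 9.57) and EIF3H at 14.51 (14.18 to 14.21). On the same array EEF1E1 was low, at 8.64 against 9.67 to 9.85. ZES 1 was low for EIF2B2, at 9.75 against 10.59 to 10.75, and for EIF3L, at 10.43 against 11.92 to 12.14. With BMS, EEF1D was high on BMS 1 (12.16 against 11.48 to 11.58), EEF1E1 low on BMS 2 (7.58 against 9.18 to 9.32) and EIF3I low on BMS 4 (9.41 against 10.76 to 10.89).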

How the results depend on the processing

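The count of translation factor genes past the threshold was 0 under all 35 alternatives for SES against BMS and for ZES against BMS, and under all 14 for LAD against RCA. With array weights it was 1, EEF1D, for ZES against SES and 1 in the F test, and 0 under the other 34 and 33 alternatives. Those weights also raised the number of all 16799 probe sets past the threshold, to 306 from 12 and to 625 from 58. The stricter threshold of 0.01 and the leaving out of EIF1AY reused the main fit, so their counts could only be 0. When single arrays or pigs were left out, all counts stayed at 0. The median difference ran from -0.18 to -0.0086 for SES minus BMS, from -0.26 to 0.16 for ZES minus BMS and from -0.25 to 0.24 for ZES minus SES when arrays or pigs were left out. Adding the level of the spike-in controls to the model gave 0.25 for both SES minus BMS and ZES minus BMS, and adding the GAPDH gap gave -0.24 and -0.12, with ZES minus SES at 0.12. The causes of these shifts were not tested. The alternatives added after seeing the data were EEF1A1 by its middle control probe set, leaving out EIF1AY, and leaving out BMS 1 and ZES 2, whose 28S ribosomal RNA signal was high. No paired analysis was possible because each pig carried 1 stent type and the labels give no number shared between groups.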

Other observations

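There are 6 probe sets that name a translation factor together with another gene, so they count for neither. One of the 2 that name EIF2S3 and LOC100624149 read 12.17 and 11.82 on SES 3 and 4 and 12.17 on both ZES 3 and ZES 4, and between 0 and 4.52 on the other 8 arrays, the same 4 high arrays as for EIF1AY. The other read 11.70 to 13.59 on all 12 arrays. SRY, a gene of the Y chromosome that directs testis formation, read 0 to 6.34 over the 12 arrays. One of the 2 probe sets that name EIF4EBP3 and ANKHD1 read 9.30, 9.21, 8.35 and 8.58 with ZES, above all BMS (7.49 to 7.80) and SES arrays (7.88 to 7.94). Of all probe sets, ZES lay wholly above BMS for 1.58% and wholly above SES for 2.94%. The difference of ZES minus BMS on this probe set was 1.17 and did not pass with limma (adjusted p = 0.410). The other probe set of EIF4EBP3 and ANKHD1 gave 0.14.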
